A study of Mus musculus with 6 samples.

Results

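Tnf, its receptors Tnfrsf1a (TNFR1) and Tnfrsf1b (TNFR2), the protease Adam17 that releases TNF from the cell surface, and the receptor adaptors Tradd and Ripk1 were followed by RNA-seq in cultured primary microglia, which are the brain's own macrophages, from mice. The 6 genes were taken by symbol from tables of 6 libraries that list 24411 genes each. All 6 passed the filter on low counts that 10124 genes passed. For 3 libraries, cells received FTY720 (fingolimod, a sphingosine analogue) at 1 µM and lipopolysaccharide (LPS, from the outer membrane of bacteria) at 10 ng/ml for 4 h. For the other 3 libraries, cells received FTY720 alone at 1 µM for 4 h. All 6 libraries therefore carry FTY720, and the comparison asks what LPS adds in its presence. Per the labels, whole brains from 12 ICR mice aged 3 days were pooled, microglia were shaken off mixed glial cultures, and more than 92% of cells were positive for CD11b. The replicates are described as independent RNA samples. Nothing says whether they came from separate animal pools or cultures, so p-values measure only the spread between these samples.

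TNF is made as a membrane protein that works on the cell surface and, once ADAM17 has cut it, as a soluble cytokine. TNFR1 is found on most cell types and carries a cytoplasmic death domain that recruits TRADD and the kinase RIPK1, from which NF-κB, MAP kinase or death signalling can follow. TNFR2 lacks a death domain, binds TRAF proteins directly, responds best to membrane TNF, and is found mainly on immune, endothelial and glial cells. Microglia are a main source of TNF in the inflamed brain.

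The sequences upstream of Tnf and of its receptors are shown because these 3 genes did not all move in the same direction. Each window runs from 250 bases before to 50 bases after the RefSeq start (GRCm38.p6), 5′ to 3′ on the gene's strand, at chr17:35201958-35202257 (minus strand) for Tnf, chr6:125349473-125349772 (plus strand) for Tnfrsf1a and chr4:145246821-145247120 (minus strand) for Tnfrsf1b. Capitals mark matches to a searched motif.
Tnf: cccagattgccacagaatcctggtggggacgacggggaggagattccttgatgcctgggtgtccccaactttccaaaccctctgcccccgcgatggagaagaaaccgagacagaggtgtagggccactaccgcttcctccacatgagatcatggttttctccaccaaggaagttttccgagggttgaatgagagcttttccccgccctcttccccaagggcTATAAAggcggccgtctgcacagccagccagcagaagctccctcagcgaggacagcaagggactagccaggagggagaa
Tnfrsf1a: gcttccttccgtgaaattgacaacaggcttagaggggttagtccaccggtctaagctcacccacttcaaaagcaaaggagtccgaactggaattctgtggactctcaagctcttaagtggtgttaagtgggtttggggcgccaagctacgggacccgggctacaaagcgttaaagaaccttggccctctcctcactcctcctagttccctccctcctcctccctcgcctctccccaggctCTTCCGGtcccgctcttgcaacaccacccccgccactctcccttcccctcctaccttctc
Tnfrsf1b: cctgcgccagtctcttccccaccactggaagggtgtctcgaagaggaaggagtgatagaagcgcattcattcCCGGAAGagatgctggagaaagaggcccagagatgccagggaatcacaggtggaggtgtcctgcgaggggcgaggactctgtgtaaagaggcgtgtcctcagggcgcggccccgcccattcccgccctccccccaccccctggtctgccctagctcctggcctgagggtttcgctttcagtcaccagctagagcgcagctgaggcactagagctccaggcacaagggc
A TATA box (TATAAA, searched on the gene's strand) lay 29 bases upstream of the Tnf start. It was found in 8.32% of 32851 promoter windows of the same length. Neither receptor window held it. The ETS core CCGGAAG, searched on both strands, began 10 bases upstream of the Tnfrsf1a start and 178 bases upstream of the Tnfrsf1b start, and 8.86% of windows held it. The AP-1 letters TGANTCA (7.81% of windows, both strands) and the NF-κB consensus GGGRNWYYCC (4.51%, both strands) were in none of the 3 windows. Only full matches to these letters within the windows were searched. Sites that depart from the letters or lie farther away would be missed, so absence here does not show that a gene lacks such sites. No matches overlapped.

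The Tnf transcript also differs from those of its receptors in AU-rich elements, sequences in the 3′ UTR that proteins of the Zfp36 family bind to destabilise an mRNA. The Tnf 3′ UTR (764 bases in GENCODE M21) held 8 ATTTA pentamers, and 9.06% of 20348 genes held at least as many. The stretch of 30 bases with the most pentamers, 5 of them in capitals, is shown here as DNA.
Tnf AU-rich element: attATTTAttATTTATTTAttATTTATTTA
The 3′ UTRs of Tnfrsf1a (490 bases) and Tradd (699 bases) held 0 pentamers, those of Adam17 and Tnfrsf1b held 1 and 2, and that of Ripk1 held 7 in 4365 bases. At least as many as in Ripk1 were held by 11.6% of genes. Pairs of pentamers sharing an A numbered 2 in Tnf, 3 in Ripk1 and 0 in Tnfrsf1a, Tnfrsf1b, Adam17 and Tradd, and 5.56% of genes held such a pair. Across genes the median was 1 pentamer.

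The libraries held 2431780 to 2800740 gene reads with FTY720 + LPS and 2729530 to 3454650 with FTY720. Rn45s, Lars2 and Mir6236 are grouped here under the label rRNA-like genes, although Lars2 encodes a protein. Their reads made up 38.2% to 44.9% of gene reads with FTY720 + LPS and 28.8% to 59.0% with FTY720. FTY720 replicate 3 had the lowest share, and the 4 calls given below held without it (Tnfrsf1b 0.64, Adam17 0.70 on the log2 scale). CPM values are reads scaled to library size with TMM factors. All 7 of 7 microglial markers had reads. Itgam (CD11b), Trem2 and Csf1r were the most abundant, and Tmem119 was scarcest, with 11 reads with FTY720 + LPS and 8 with FTY720. The summed level of the 7 markers was 786.6 to 990.2 CPM with FTY720 + LPS and 563.4 to 735.8 CPM with FTY720. Markers of other brain cells were present as well and are given below. Markers of monocytes and lymphocytes were near 0, with 3 reads over the FTY720 + LPS libraries and 5 over the FTY720 libraries for 4 genes, and Ly6c2 at 0 in all 6 libraries.

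Of the 6 genes, 3 were higher with FTY720 + LPS (Tnf, Tnfrsf1b and Adam17), 1 was lower (Tnfrsf1a) and 2 did not pass the test (Tradd and Ripk1), by edgeR's quasi-likelihood test at a Benjamini-Hochberg adjusted p under 0.05. Over all 10124 genes tested, 46% were called, 23.3% higher and 22.7% lower. Of those calls 50.7% were higher, against 57.1% with DESeq2's size factors and test, 38.8% with upper-quartile factors, 22.2% with total library size alone and 18.0% with total library size without the rRNA-like genes. The calls of Tnf and Tnfrsf1a held in all 4 of these settings. Tnfrsf1b and Adam17 lost their calls with total library size alone and kept them in the others. Tnfrsf1b also lost its call once each library's trend on mean expression was removed, where Adam17 kept it. The groups did not overlap for 4 of the 6 genes, where this was so for 54% of genes tested.

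Tnf (ENSMUSG00000024401.14; chromosome 17, 35199381 to 35202007, minus strand, GRCm38) had 6467, 5276 and 4553 reads with FTY720 + LPS, against 70, 112 and 87 reads with FTY720. These are 2412, 2232 and 2279 CPM with FTY720 + LPS and 23.4, 37.4 and 20.5 CPM with FTY720. The groups were far apart, and the libraries with FTY720 + LPS lay close to each other. Tnf averaged 2308 ± 93.3 CPM with FTY720 + LPS and 27.1 ± 9.05 CPM with FTY720 (SD, n = 3 each), a log2 fold change of 6.43 ± 0.17 (SE; edgeR adjusted p = 3.17e-19). By p-value it ranked 12 among all genes tested. Among 19902 protein-coding genes ranked by CPM per kb of exon, Tnf stood at rank 14, 15 and 14 in the libraries with FTY720 + LPS. With FTY720 its ranks were 1469, 774 and 1859.

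**Figure D1:**
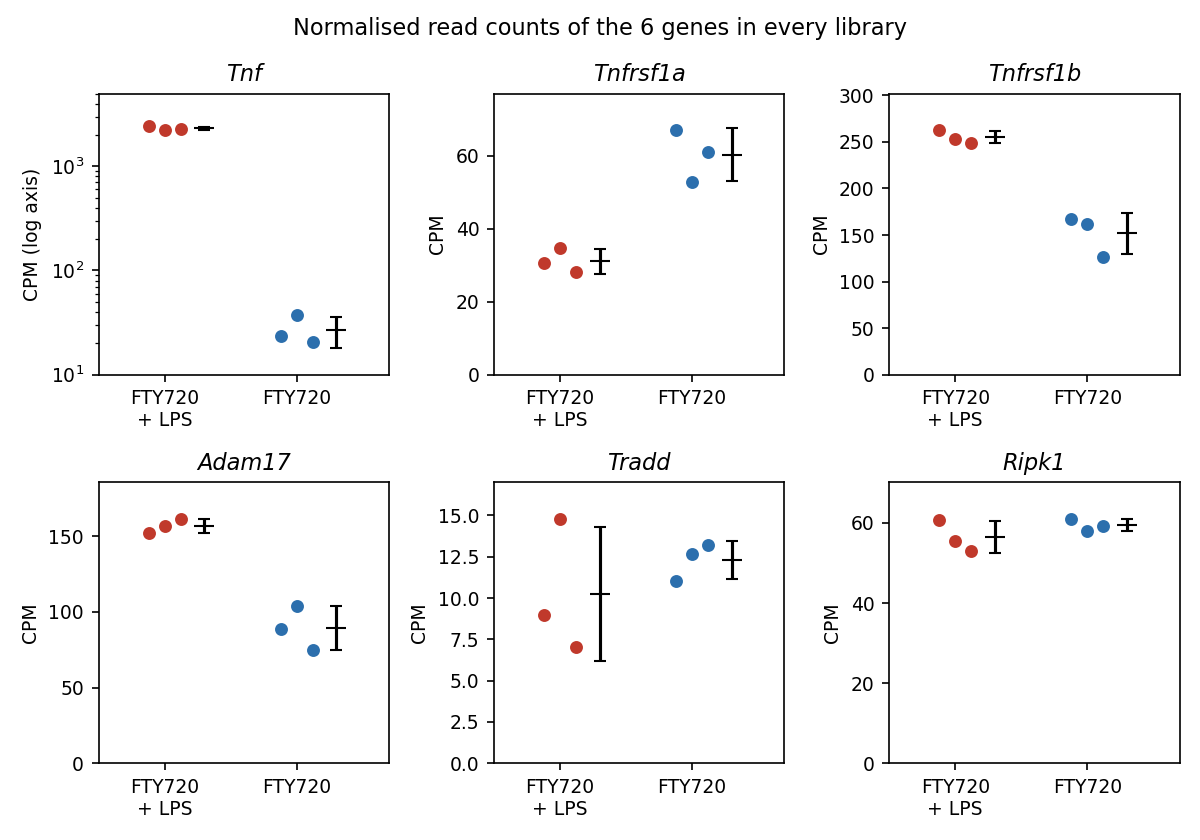
Normalised read counts (CPM; log axis for Tnf, linear axes from 0 for the others) of the 6 genes, with a point for each library and the mean ± SD (n = 3) beside it. Tnf, Tnfrsf1b and Adam17 lie higher with FTY720 + LPS and Tnfrsf1a lower, while the Tradd and Ripk1 points overlap between the groups.

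The genes that flank Tnf encode its closest relatives, the lymphotoxins, and had almost no reads. Lta, lymphotoxin alpha, ends 1157 bp upstream of Tnf on the same strand and had 1 read over the 3 libraries with FTY720 + LPS and 0 reads over the 3 with FTY720. Ltb, lymphotoxin beta, lies 3060 bp downstream on the opposite strand and had 2 reads with FTY720 + LPS and 1 read with FTY720. A count of 0 allows up to 3 reads, or 1.12 to 1.50 CPM in a library with FTY720 + LPS and 0.706 to 1.00 CPM in a library with FTY720. Any difference of Lta or Ltb was not detectable at this depth, and such limits cover counting error only.

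**Figure D2:**
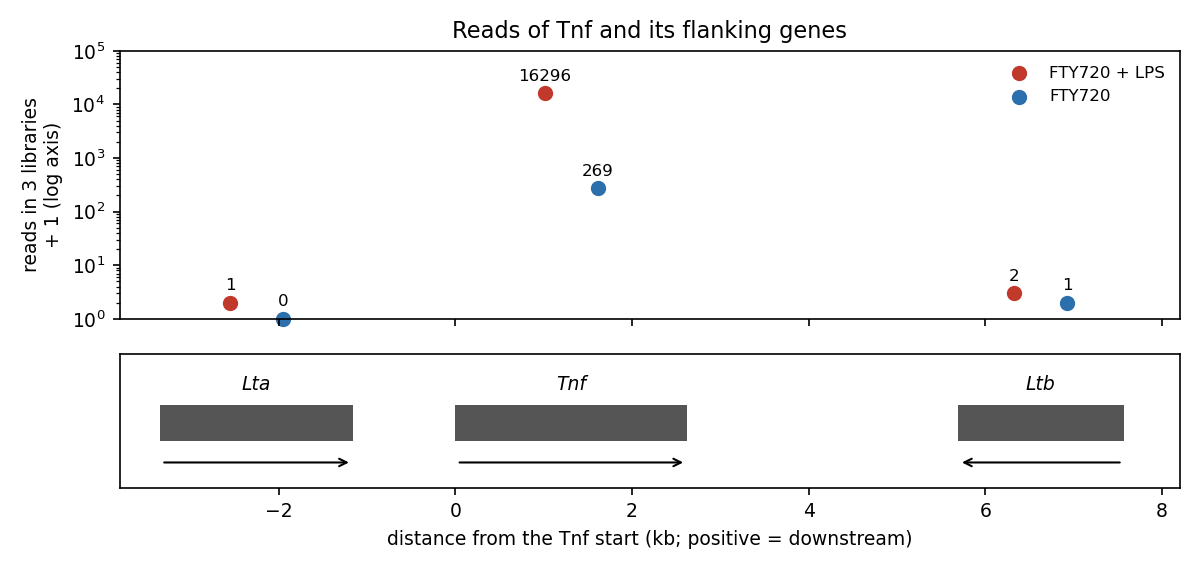
Reads summed over 3 libraries plus 1 (log axis, upper panel) for Lta, Tnf and Ltb, above their extents by distance from the Tnf start in kb, with arrows for the direction of transcription (lower panel). Tnf holds 16296 reads with FTY720 + LPS and 269 with FTY720, and each flanking gene holds at most 2.

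The receptor genes changed in opposite directions. Tnfrsf1a (ENSMUSG00000030341.17; chromosome 6, 125349362 to 125362484, plus strand) had 82, 82 and 56 reads with FTY720 + LPS and 201, 158 and 260 reads with FTY720, which are 30.6, 34.7 and 28.0 CPM with FTY720 + LPS and 67.1, 52.7 and 61.2 CPM with FTY720. Every library with FTY720 + LPS was below every library with FTY720. The gene fell to 31.1 ± 3.36 CPM with FTY720 + LPS, against 60.3 ± 7.20 CPM with FTY720 (SD, n = 3 each), 1.93-fold lower, with a log2 fold change of -0.95 ± 0.15 (SE; edgeR adjusted p = 2.30e-05).

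Tnfrsf1b (ENSMUSG00000028599.10; chromosome 4, 145213463 to 145246870, minus strand) had 704, 599 and 498 reads with FTY720 + LPS and 500, 486 and 537 reads with FTY720. After scaling these are 262.6, 253.4 and 249.3 CPM with FTY720 + LPS and 166.9, 162.3 and 126.4 CPM with FTY720. The raw reads overlapped and the scaled values did not. Tnfrsf1b rose to 255.1 ± 6.80 CPM with FTY720 + LPS, against 151.8 ± 22.1 CPM with FTY720 (SD, n = 3 each), 1.69-fold higher, with a log2 fold change of 0.75 ± 0.12 (SE; edgeR adjusted p = 1.69e-05). The call ended with total library size alone (0.46, adjusted p = 0.212) and once each library's trend on mean expression was removed (0.24, adjusted p = 0.130).

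In the ratio of Tnfrsf1b to Tnfrsf1a reads, a scaling factor shared by all genes of a library cancels. A trend on expression level does not cancel. With that trend removed, the log2 fold changes were 0.24 for Tnfrsf1b and -1.03 for Tnfrsf1a, and the ratio was not computed in that setting. The ratio of reads was 8.59, 7.30 and 8.89 in the libraries with FTY720 + LPS and 2.49, 3.08 and 2.07 in those with FTY720. The ratio was higher in all 3 libraries with FTY720 + LPS, with a mean of 8.26 ± 0.842 against 2.54 ± 0.508 with FTY720 (SD, n = 3 each). On the log2 scale the groups differed by 1.71, a 3.28-fold difference (exact two-sided permutation p = 0.1, the smallest that 3 against 3 libraries allow). Per kb of exon, Tnfrsf1b exceeded Tnfrsf1a 5.61 ± 0.572-fold with FTY720 + LPS and 1.73 ± 0.344-fold with FTY720. These are levels in bulk RNA, where fewer cells of a type and less RNA per cell cannot be told apart.

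**Figure D3:**
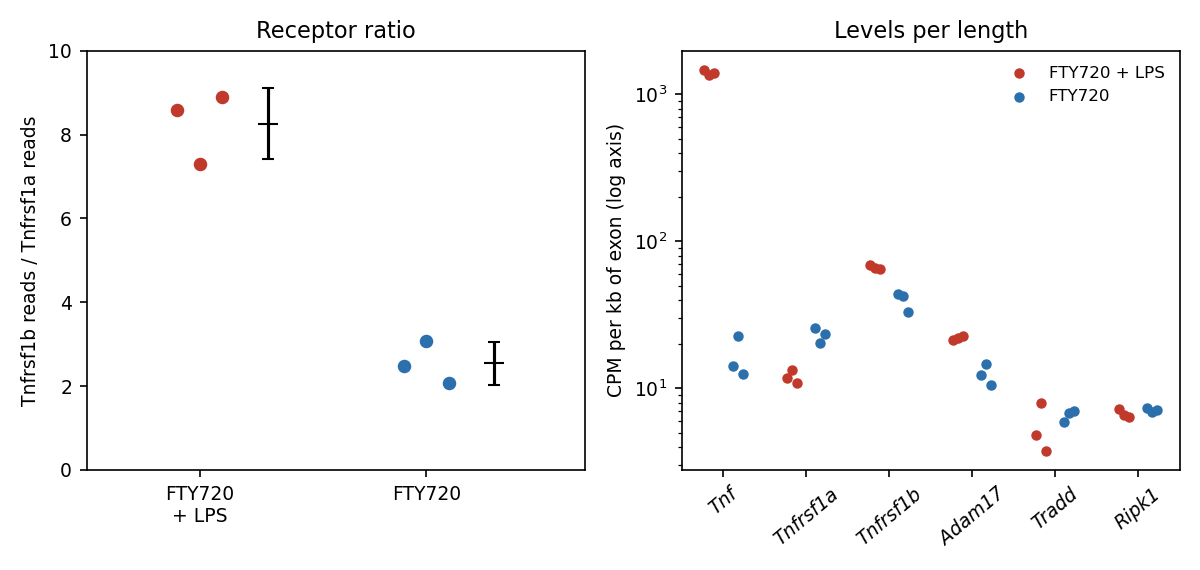
Left, reads of Tnfrsf1b divided by reads of Tnfrsf1a in each library, with the mean ± SD (n = 3) beside the points. Right, CPM per kb of exon (log axis) of the 6 genes in each library; the receptor ratio is 7.30 to 8.89 with FTY720 + LPS and 2.07 to 3.08 with FTY720.

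Markers of other brain cells moved with these changes. Of 6 oligodendrocyte-lineage markers, 5 were tested and 5 were lower by edgeR's test, with summed levels of 136.9 to 154.7 CPM with FTY720 + LPS and 263.6 to 286.7 CPM with FTY720. Of 6 neuron markers, 3 were tested and 3 were lower, with sums of 97.6 to 109.7 CPM with FTY720 + LPS and 179.5 to 241.3 CPM with FTY720. Of 6 astrocyte markers, 2 were higher and 1 was lower among 5 tested (93.9 to 133.5 CPM with FTY720 + LPS, 77.1 to 97.8 CPM with FTY720). Of 5 fibroblast and mural markers 3 were tested, of which 0 were called by edgeR, 1 (Dcn) had an unadjusted p under 0.05 and 0 were called by DESeq2 (18.2 to 29.5 CPM with FTY720 + LPS, 17.2 to 23.4 CPM with FTY720). No marker of these 4 lists was at 0 in all libraries. Of the 6 tested microglial markers 5 were higher, and Csf1r stood at -0.18 ± 0.16 (edgeR adjusted p = 0.383). Median log2 fold changes of tested markers were 0.77 for microglia, -0.92 for the oligodendrocyte lineage and -0.93 for neurons. They were 0.24 for astrocytes and -0.13 for fibroblasts and mural cells. Beside these, Tnfrsf1b stood at 0.75, Adam17 at 0.82 and Tnfrsf1a at -0.95. The part of these markers in the values of the 6 genes was not tested.

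The shedding protease was higher as well. Adam17 (ENSMUSG00000052593.16; chromosome 12, 21323509 to 21373632, minus strand) had 409, 371 and 323 reads with FTY720 + LPS and 266, 312 and 319 reads with FTY720, which are 152.6, 157.0 and 161.7 CPM with FTY720 + LPS and 88.8, 104.2 and 75.1 CPM with FTY720. The scaled values did not overlap. Adam17 averaged 157.1 ± 4.57 CPM with FTY720 + LPS and 89.3 ± 14.5 CPM with FTY720 (SD, n = 3 each), with a log2 fold change of 0.82 ± 0.13 (SE; edgeR adjusted p = 1.41e-05). With total library size alone the change was 0.53 and not called (adjusted p = 0.140).

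Neither receptor adaptor passed the test. Tradd (ENSMUSG00000031887.13; chromosome 8, 105258286 to 105264609, minus strand) was the scarcest of the 6 genes, with 24, 35 and 14 reads with FTY720 + LPS and 33, 38 and 56 reads with FTY720. It averaged 10.3 ± 4.06 CPM with FTY720 + LPS and 12.3 ± 1.14 CPM with FTY720 (SD, n = 3 each), with a log2 fold change of -0.26 ± 0.26 (SE; 95% interval -0.77 to 0.26; edgeR adjusted p = 0.445). Library 2 with FTY720 + LPS, at 14.8 CPM, lay above all 3 libraries with FTY720 and libraries 1 and 3, at 8.95 and 7.01 CPM, lay below them. Ripk1 (ENSMUSG00000021408.15; chromosome 13, 34002363 to 34037147, plus strand) had 163, 131 and 106 reads with FTY720 + LPS and 183, 174 and 252 reads with FTY720. It averaged 56.4 ± 3.96 CPM with FTY720 + LPS and 59.5 ± 1.50 CPM with FTY720 (SD, n = 3 each), with a log2 fold change of -0.07 ± 0.13 (SE; 95% interval -0.33 to 0.19; edgeR adjusted p = 0.680). Its values, 60.8, 55.4 and 53.1 CPM with FTY720 + LPS and 61.1, 58.1 and 59.3 CPM with FTY720, overlapped. Gm17084 overlaps Ripk1 on the same strand and Serpinb6a and Gm17083 on the opposite strand. The Ripk1 counts are therefore uncertain where reads also lie in Gm17084. With library sizes that leave out the rRNA-like genes and no factors, both were called lower (Tradd -0.70, adjusted p = 0.0294; Ripk1 -0.52, adjusted p = 0.00203), in a setting where the median of all genes stood at -0.48.

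**Figure D4:**
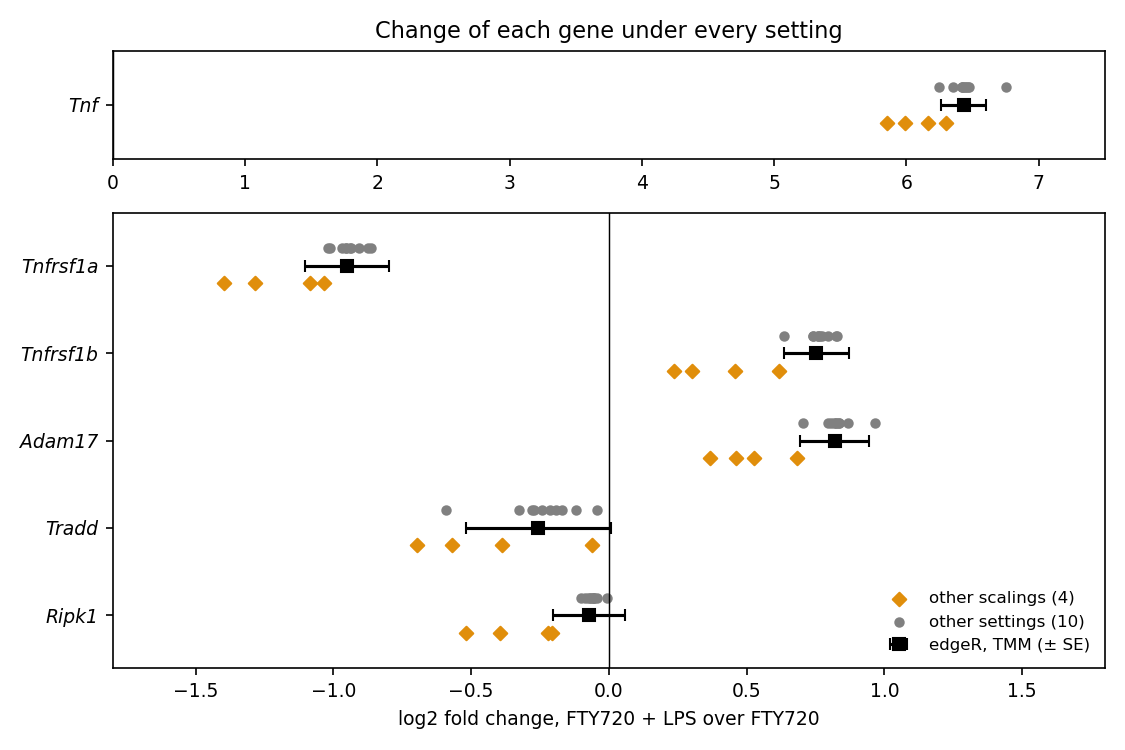
Log2 fold changes (FTY720 + LPS over FTY720) of the 6 genes: black squares with bars for edgeR with TMM factors ± SE, orange diamonds for 4 other scalings, and grey points for the other 10 settings. The 4 scalings are upper-quartile factors, total library size with and without the rRNA-like genes, and removal of each library's trend on mean expression. Tnf runs from 5.85 to 6.75 and Tnfrsf1a from -1.40 to -0.86, while Tnfrsf1b runs from 0.24 to 0.83 and Adam17 from 0.37 to 0.97.

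Per length, the order of the 6 genes differed between the groups. With FTY720 + LPS, Tnf led at 1408 ± 56.9 CPM per kb of exon, followed by Tnfrsf1b (66.8 ± 1.78), Adam17 (22.0 ± 0.639), Tnfrsf1a (12.0 ± 1.30), Ripk1 (6.76 ± 0.475) and Tradd (5.50 ± 2.18; SD, n = 3 each). Only the ranges of Ripk1 and Tradd overlapped among neighbours in that order. With FTY720, Tnfrsf1b led at 39.8 ± 5.80, followed by Tnfrsf1a (23.3 ± 2.78), Tnf (16.5 ± 5.52), Adam17 (12.5 ± 2.03), Ripk1 (7.13 ± 0.179) and Tradd (6.59 ± 0.610). There the neighbours Tnfrsf1a and Tnf, Tnf and Adam17, and Ripk1 and Tradd overlapped. With the longest transcript as the length of each gene, Adam17 stood at 20.0 with FTY720, above Tnf.

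The genes with the most similar profile over the 6 libraries were found by the root mean square difference of log2 CPM, centred per gene. For Tnf these were Gbp5, a guanylate-binding GTPase (0.16), Csf2, which encodes GM-CSF (0.17), and Sele, E-selectin (0.19). Gbp5 averaged 316.3 CPM with FTY720 + LPS and 2.93 CPM with FTY720. Csf2 had 388 reads with FTY720 + LPS and 1 read with FTY720, a ratio of 564 after scaling (95% counting interval 101 to 22340), and Sele had 478 reads with FTY720 + LPS and 1 read with FTY720 (ratio 695, 124 to 27509). The lower bounds of both ratios lie above the 86.4-fold of Tnf: a prior count of 2, added before taking logs, lowers the log2 differences of Csf2 and Sele and so sets their likeness to Tnf. The prior count also lowers that of Gbp5, which had 29 reads with FTY720. Its fitted log2 fold change was 6.78, against 6.43 for Tnf. For Tnfrsf1a the nearest were Dph7, Fancg and Uckl1 (0.08, 0.08 and 0.09), and for Tnfrsf1b they were Gpatch3, Jdp2 and Poldip3 (0.05, 0.06 and 0.06).

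Around the receptors, 7 lists of 83 pathway genes were examined, of which 55 were tested. By edgeR's test 22 were higher and 10 lower with FTY720 + LPS, 58.2% called, against 46% of all genes. Their median log2 fold change was 0.26, and that of all genes was -0.04. With total library size alone the split was 11 higher and 11 lower, with a median of -0.06 against -0.35 for all genes. Of all 10124 genes in that setting, 766 were higher and 2688 lower. In the paragraphs on these lists, a change with ± is a log2 fold change with its SE, and rose or lower marks an edgeR adjusted p under 0.05.

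In the TNFR1 complex and its kinases, 6 of 14 tested genes were higher and 2 lower (57.1% called against 46% of all genes, median 0.41). The largest changes were those of Tab1, a partner of the kinase TAK1 (-1.79 ± 0.33; 3.70 CPM with FTY720 + LPS and 13.5 CPM with FTY720), and Ikbkg, which encodes NEMO, the regulatory subunit of the IκB kinase complex (-0.93 ± 0.15; 31.3 CPM with FTY720 + LPS and 59.3 CPM with FTY720). The 6 higher genes lay between 0.67 and 0.79, among them Traf2 (0.78 ± 0.17), Birc3 (0.79 ± 0.17) and Chuk (0.67 ± 0.14), named after their values were seen. With total library size alone edgeR called 0 of the 14 higher, with 0 at an unadjusted p under 0.05, and 3 lower. Of all 10124 genes it called 766 higher and 2688 lower in that setting. DESeq2, which was run with its own size factors and not with total library size, called 6 higher and 2 lower, as edgeR did with TMM factors.

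Among the limiters of TNFR1 signalling, 3 of 6 were higher and 1 lower (66.7% called against 46% of all genes, median 0.31). Tnfaip3, which encodes the ubiquitin-editing enzyme A20, rose by 2.77 ± 0.13 on the log2 scale to 276.1 ± 11.6 CPM with FTY720 + LPS, against 40.4 ± 5.03 CPM with FTY720 (SD, n = 3 each). Its partner Tnip1 rose by 1.02 ± 0.26. Spata2, which links the deubiquitinase CYLD to the receptor complex, rose by 0.55 ± 0.17, and Cyld itself fell by 0.80 on the log2 scale (SE 0.21); these 2 genes were named after their values were seen. With total library size alone 1 was higher and 1 lower, where 766 of all 10124 genes were higher and 2688 lower. Neither Tnip1 (0.74, edgeR adjusted p = 0.0637) nor Spata2 (0.25, adjusted p = 0.537) was called there. Without FTY720 + LPS replicate 1 the call of Spata2 was also lost (0.50, edgeR adjusted p = 0.0538).

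In the death arm, 2 of 4 tested genes were higher (50% called, near the 46% of all genes, median 0.73). Cflar, which encodes the caspase-8 inhibitor cFLIP, rose 5.67-fold to 305.7 ± 26.7 CPM with FTY720 + LPS, against 54.2 ± 7.98 CPM with FTY720 (SD, n = 3 each). Ripk3, the necroptosis kinase, rose by 1.52 ± 0.40 and had 38 reads with FTY720 + LPS and 19 reads with FTY720. Caspase-8 itself stood at -0.05 ± 0.19 (edgeR adjusted p = 0.838), and Mlkl, the necroptosis effector, was too scarce to test, with 12 reads with FTY720 + LPS and 8 reads with FTY720. These 2 genes were named after their values were seen.

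Shedding and processing genes split, with 2 of 7 higher and 2 lower (57.1% called against 46% of all genes, median 0.06). The intramembrane proteases that cleave the TNF stub left in the membrane diverged: Sppl2a rose by 1.34 ± 0.12 to 246.0 CPM with FTY720 + LPS, against 96.9 CPM with FTY720, and Sppl2b had 7.43 CPM with FTY720 + LPS and 17.5 CPM with FTY720 (-1.22 ± 0.24). Rhbdf2, which encodes iRhom2, the carrier that brings ADAM17 to the cell surface, rose by 0.78 ± 0.15, and Frmd8, which stabilises that complex, was lower (-0.44 ± 0.17, edgeR adjusted p = 0.0418). The call of Frmd8 was lost in 9 of 14 alternatives (adjusted p 0.0523 to 0.165), among them DESeq2 (0.128), the expression trend removed, no filter, and leaving out each library in turn except FTY720 replicate 3. Adam10, the related protease, stood at 0.27 ± 0.12 (edgeR adjusted p = 0.0746). With total library size alone Rhbdf2 was not called (0.49, edgeR adjusted p = 0.179). Rhbdf2, Frmd8 and Adam10 were named after their values were seen.

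Regulators of the Tnf mRNA moved both ways, with 4 of 8 higher and 2 lower (75% called against 46% of all genes, median 0.58). Of the Zfp36 family, whose proteins bind the AU-rich element shown above, Zfp36l2 had 3.85 CPM with FTY720 + LPS and 35.3 CPM with FTY720 (-3.18 ± 0.28), Zfp36 rose by 0.98 ± 0.13, and Zfp36l1 stood at -0.24 ± 0.15 (edgeR adjusted p = 0.202). Zc3h12a, the RNase Regnase-1, rose by 1.94 ± 0.19. Mapkapk2, the kinase that phosphorylates the Zfp36 protein, rose by 1.56 ± 0.11, Rc3h1, which encodes Roquin-1, rose by 0.91 ± 0.11, and Tia1, a translational repressor, was lower (-0.67 ± 0.18). Of these 7 genes, Zfp36, Zfp36l1, Mapkapk2, Rc3h1 and Tia1 were named after their values were seen. With total library size alone 2 of the 8 were higher and 2 lower, where 766 of all 10124 genes were higher and 2688 lower. Neither Zfp36 (0.67, edgeR adjusted p = 0.0553) nor Rc3h1 (0.59, adjusted p = 0.0982) was called there.

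Most other TNF superfamily ligands were scarce. Of 17 ligand genes besides Tnf, 2 were tested: Tnfsf9 (4-1BB ligand) rose by 3.13 ± 0.42 with 82 reads with FTY720 + LPS and 13 reads with FTY720 (4.00 without FTY720 replicate 2, which held 8 of those 13 reads), and Tnfsf12 (TWEAK) stood at -0.52 ± 0.40 (edgeR adjusted p = 0.292; named after its values were seen). The other 15 had at most 25 reads per group. Of 26 other receptor genes 14 were tested, 4 were higher and 3 lower (50% called, near the 46% of all genes, median 0.29). Cd40, a co-stimulatory receptor, had 2312 reads with FTY720 + LPS and 16 reads with FTY720 (7.65 ± 0.25; 8.35 without FTY720 replicate 2, which held 9 of those 16 reads), and Relt rose by 1.74 ± 0.38. The others called were Tnfrsf12a, the TWEAK receptor (1.59 ± 0.15), and Tnfrsf23 (1.07 ± 0.20) among those higher, and Ltbr, the lymphotoxin beta receptor (-0.59 ± 0.17), Tnfrsf21 (-0.46 ± 0.13) and Ngfr (-1.36 ± 0.42) among those lower, all 5 named after their values were seen. Tnfrsf21 was not called without FTY720 + LPS replicate 1 (-0.38, edgeR adjusted p = 0.0506). Ngfr was not called by DESeq2 (adjusted p = 0.0687), by edgeR with the expression trend removed (0.0884), or without FTY720 + LPS replicate 1 (0.0526), FTY720 + LPS replicate 3 (0.0676) or FTY720 replicate 2 (0.0512).

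**Figure D5:**
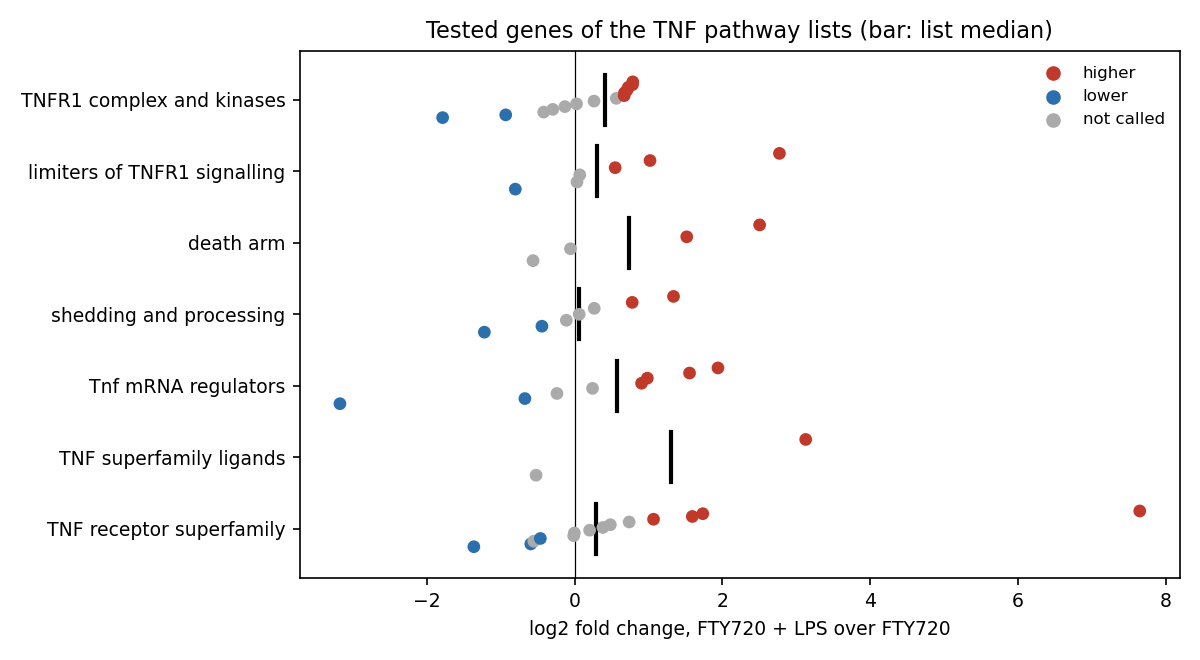
Log2 fold changes (FTY720 + LPS over FTY720) of the 55 tested genes of the 7 lists, with red points for genes called higher, blue for lower and grey for those not called, and a bar at each list's median. Cd40 lies highest at 7.65 and Zfp36l2 lowest at -3.18.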

How the data were processed

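Per the labels, total RNA was depleted of ribosomal RNA and made into directional libraries. The authors deposited raw read counts per gene and strand, 1 table per library. Per the submitters' processing notes, the tools were CASAVA 1.8.2, STAR 2.5.1, Trimmomatic 0.33 and DESeq2, and the build was mm10. Their gene annotation is not stated in the sources used. Counts of the strand with 98.4% to 98.9% of gene reads were used. Rows that name no gene (74.5% to 79.2% of reads listed) were left out.

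All genes were fitted together with edgeR 4.0.16 (R 4.3.3): TMM factors, filterByExpr (minimum count 10), quasi-likelihood test, Benjamini-Hochberg adjustment over 10124 genes. SE is the absolute log2 fold change over the square root of F. log2 CPM used a prior count of 2. Simulated counts were used to test the fit. Alternatives were DESeq2 1.42.0, other scalings, no filter, unstranded counts, a replicate block and leaving out each library. Every pair of replicates differed by more than sampling noise (chi-square over genes).

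Lengths and positions came from GENCODE M21 (GRCm38, also called mm10) and promoters from RefSeq. All 83 listed symbols were found in the tables. Named were the 6 genes, Lta and Ltb, in each list the 2 called genes that changed most (mean log2 CPM at least 1), and the 3 nearest profiles of Tnf and each receptor. The genes and lists were chosen with earlier results of these data known. Of the cell type markers, 2 are not reported here and were left out of the marker counts and sums.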

Additional observations from a re-analysis of the deposited data

Results flagged for a closer look

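Reads on the strand opposite to Tnf numbered 37, 63 and 20 in the libraries with FTY720 + LPS, 120 in all, and 0, 0 and 1 in those with FTY720. They were 0.731% of Tnf reads on either strand with FTY720 + LPS and 0.370% with FTY720, while over all genes 1.41% to 1.60% of reads with FTY720 + LPS and 1.06% to 1.61% with FTY720 lay on the opposite strand. Adam17 had 27 such reads with FTY720 + LPS (4.10, 3.81 and 3.50 CPM) and 32 with FTY720 (3.34, 3.34 and 2.83 CPM), higher with FTY720 + LPS only after scaling. Iah1 overlaps Adam17 on that strand. The main comparisons did not use these reads, and the differences were not tested.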

How the results depend on the processing

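All 14 alternatives kept the sign of each of the 6 genes. Tnf ranged from 5.85 to 6.75 and Tnfrsf1a from -1.40 to -0.86, and both were called in all 14. Tnfrsf1b lost its call with the expression trend removed (0.24) and with total library size alone (0.46), where Adam17 also lost it (0.53). With library sizes without Rn45s, Lars2 and Mir6236, Tradd (-0.70) and Ripk1 (-0.52) were called. The median of all genes was -0.04, -0.17 with upper-quartile factors, -0.35 with total library size and -0.48 without the rRNA-like genes. Relative to that median Tnfrsf1b stood at 0.79, 0.81 and 0.78 in these 3 scalings, and Adam17 at 0.85, 0.88 and 0.85. With the expression trend removed, the values relative to the median were smaller, 0.26 for Tnfrsf1b and 0.48 for Adam17. Over all genes 2362 were higher and 2297 lower (50.7% of calls higher, against 38.8%, 22.2% and 18.0% in the same 3 scalings and 57.1% with DESeq2). Total library size gave 766 higher and 2688 lower, leaving out the rRNA-like genes gave 1088 higher and 4962 lower, and DESeq2 gave 1529 lower. Of the list genes 11 were higher with total library size, and 13 higher and 18 lower without the rRNA-like genes; the cause was not tested.

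With the longest transcript as length, Adam17 stood at 35.1 CPM per kb with FTY720 + LPS and 20.0 with FTY720, Ripk1 at 8.72 with FTY720 + LPS and 9.19 with FTY720, Tnfrsf1a at 14.4 with FTY720 + LPS and 28.0 with FTY720, and Tradd with FTY720 at 7.28. Leaving out each library kept every call of the 6 genes: Tnf 6.25 to 6.75, Tnfrsf1a -1.02 to -0.86, Tnfrsf1b 0.64 to 0.83, Adam17 0.70 to 0.97, Tradd -0.59 to -0.04 and Ripk1 -0.10 to -0.01. The log2 receptor ratio difference ranged from 1.57 to 1.86 when each library was left out. It was not computed with the expression trend removed. The labels share replicate numbers, but same-numbered libraries did not deviate together (correlations -0.07 to -0.02). With the replicate block Tnf stood at 6.44, Tnfrsf1a at -0.95, Tnfrsf1b at 0.76 and Adam17 at 0.83, all called, Frmd8 was not called (adjusted p = 0.0523), and 2292 genes were higher and 2171 lower. Depth limits Tradd most, with 14 to 56 reads per library.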

Other observations

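Several scarce relatives of Tnf had more reads with FTY720 + LPS but were too scarce for the test, and are named here after their values were seen. Tnfsf10 (TRAIL) had 20 reads with FTY720 + LPS and 8 with FTY720, Tnfsf15 had 18 reads with FTY720 + LPS and 6 with FTY720, and the receptor Tnfrsf9 (4-1BB), which binds the ligand Tnfsf9, had 10 reads with FTY720 + LPS and 1 with FTY720. Tnfsf13b (BAFF) had 25 reads with FTY720 + LPS and 22 with FTY720. Other untested relatives had fewer reads with FTY720 + LPS than with FTY720. These were Tnfsf8 (0 and 2), Tnfsf13 (2 and 3), Fasl (1 and 4), Tnfrsf8 (0 and 2), Tnfrsf11b (5 and 10) and Tnfrsf13c (0 and 3). Without the filter on low counts, edgeR called 3 of 16 ligand genes with any read higher and 0 lower. At an unadjusted p under 0.05, 0 were lower. Over all 19841 genes in that setting, 2424 were called higher and 2458 lower. DESeq2 was run only with the filter, where it tested 2 ligand genes and called 1 higher and 0 lower.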
